A study of Mus musculus with 8 samples.

Results

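Wild type yolk sac at E9.5 was measured on 4 of the 8 arrays of a study of endothelial Notch signaling, and these 4 arrays were chosen by their source name, which ends in wild type. The study compared yolk sacs with activated Notch1 (EC-N1ICD) or without RBPJ in the endothelium (EC-Rbpj-KO) with wild type, in 2 sets of 4 arrays. In the Notch1 activation set the strain was C57BL6, and both wild type samples had the genotype Tie2 0/0; ROSA +/+, from a Tie2 Tg/0 male and a ROSA +/N1ICD female. In the Rbpj set the strain was mixed, and the parents were a Tie2 Tg/0; Rbpj +/flox male and an Rbpj +/flox female. The labels give the wild type samples of that set no genotype, so whether they carried Tie2-Cre, which is active in endothelial and blood cells, or 1 floxed Rbpj allele is not known here. The mutant groups of the same sets were Tie2 Tg/0; ROSA +/N1ICD and Tie2-Cre; Rbpj flox/flox, at the same age. Each wild type pair held 2 arrays, and no source says whether the arrays of a pair came from different embryos, so p-values measure only the spread between these arrays, which may be technical. The 2 titles of each wild type pair begin with the same number, whose meaning is not stated, so each pair may come from a single litter. Strain, cross, array run and any such litter changed together between the sets and cannot be told apart.

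The yolk sac is the first organ of exchange between the mouse embryo and its mother. Its outer layer is visceral endoderm, an absorptive epithelium that takes up and breaks down maternal protein and secretes lipoproteins and plasma proteins as the liver does later. The inner layer is extraembryonic mesoderm, which holds the blood islands with primitive red cells, the endothelium of the vitelline vessels, smooth muscle precursors and mesothelium. RNA was taken from the whole tissue, so fewer cells of a type and less RNA per cell cannot be told apart in any value given here.

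The median probe set signal of a wild type array was 38 to 50. RNA integrity was read from 3' over 5' probe set ratios, which for Actb were 2.10 and 2.34 on the C57BL6 arrays and 1.90 and 1.84 on the mixed strain arrays, and which for Gapdh ran from 2.76 to 3.51 with both mixed strain arrays above both C57BL6 arrays. All 4 wild type arrays carried male transcripts, with Eif2s3y at 702 to 870 and Xist at 77 to 96, so the pairs did not differ in embryo sex. Of 7 tested reference genes, Hprt was higher in the mixed strain pair (1838 and 1791 against 2657 and 2720, log2 difference 0.57, adjusted p = 0.0143), and the other 6, Actb among them, did not pass the test. Its call was lost after median centring.

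To describe normal yolk sac, each of 18193 genes was ranked by its signal on each wild type array. A percentile is the share of genes with a lower signal on that array. Probe sets differ in how strongly they bind, so a rank places a gene's probe set and is not an amount of RNA. The 20 genes with the highest mean rank fell into 4 kinds. Ttr and Afp, carrier proteins secreted by the endoderm, led with mean ranks of 2.0 and 2.1, and Apoa1 and Rbp4 stood at 5.6 and 13.2. Hbb-bh1 and Hbb-y, the beta-like globins of primitive red cells, held mean ranks of 3.2 and 5.2. Translation genes made up Rps2, Rps3a1, Rps18, Rps28, Rps29, Rpsa, Rpl41, Eef1a1 and Tpt1, and the rest were Actb, Actg1, Hspa8, C1qbp and Uqcrb. Of the 20 highest genes of each array, 13 were common to all 4 arrays, as were 69 of the 100 highest and 391 of the 500 highest. Among the 100 genes with the highest mean rank, the endoderm lists held 11, the blood lists 3, the mesoderm lists 1 and the endothelium lists 0.

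Genes of the visceral endoderm stood high in rank. Apolipoproteins and lipid export genes had a median percentile of 99.3, with Apoa1, Apom, Apoe and Apob each above 99.6, and Fabp2 at 83.65 and Lcat, the plasma enzyme that esterifies cholesterol, at 65.94 lowest. Endocytic receptors and adaptors followed at 97.8. Cubn, the cubilin receptor for maternal protein, had signals of 19542, 19609, 20980 and 19984, and its adaptor Dab2, partner Amn and chaperone Lrpap1 lay above the 99th percentile, while Lrp2, the megalin receptor, and the lysosomal cofactor Gm2a were lowest at 89.15 and 87.01. Genes of the endoderm epithelium had a median of 95.8, led by Rhox5, Krt8, Npl and Krt18, with Krt19 at 77.22 and the hedgehog ligand Ihh at 57.70. Secreted plasma proteins spread more widely around their median of 90.6. Afp, Ttr, Rbp4 and Fgg lay above 98, yet Alb lay at 45.24, and Ahsg at 26.34 and Cp at 22.39 were below the array median. The transcription factors of the endoderm lay lower, at a median of 61.7, with Hnf4a at 97.04, Foxa2 at 84.81, Gata6 at 71.73 and Foxa1 at 63.44 highest and Eomes at 42.31 and Onecut1 at 39.07 lowest. Markers shared with parietal endoderm, mostly basement membrane genes, had a median of 74.5, with Col4a1, Lamb1, Sparc and Col4a2 above 91 and Thbd at 50.31 and Fst at 34.21 lowest.

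**Figure D1:**
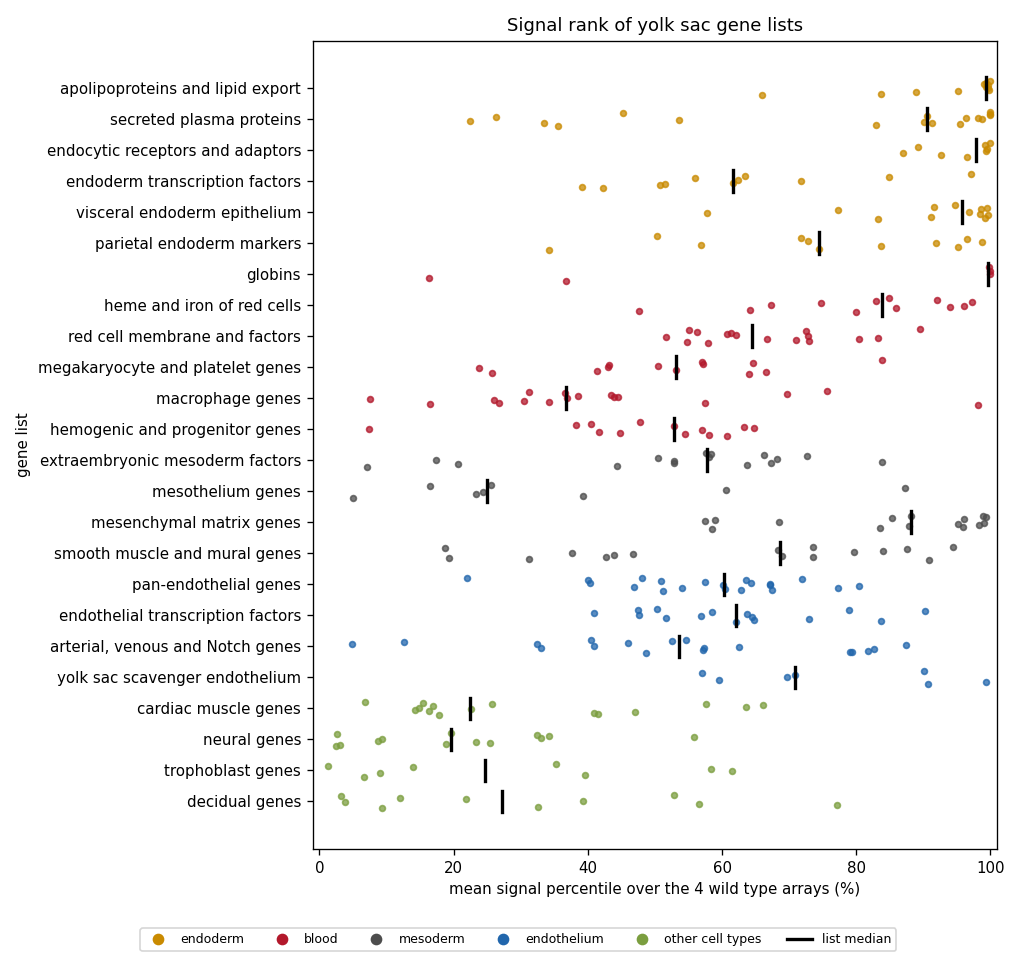
Mean signal percentile over the 4 wild type arrays for each matched member of 24 gene lists. Points are genes, colours are tissue layers and black bars are list medians. Lipid export, endocytosis and globin lists lie near the top, and lists of cardiac, neural, trophoblast and decidual genes have medians of 19.6 to 27.2.

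Blood genes divided by lineage. The embryonic globins Hbb-bh1, Hbb-y and Hba-x lay above the 99.7th percentile. The probe sets named for the adult genes Hbb-b2 and Hba-a1 gave signals of 39 to 63 and 15 to 23. Probe sets that name several genes were left out, and the adult genes Hbb-b1 and Hbb-bt were not matched. The level of adult globins as a whole therefore cannot be read from these values. Heme and iron genes had a median percentile of 83.9, led by Urod and Fech, enzymes of heme synthesis, Tfrc, the transferrin receptor, and Alad, with Slc11a2 and Steap3 lowest. Red cell membrane genes and factors had a median of 64.4, with the anion exchanger Slc4a1 at 89.44, Tspan33 at 83.27, Klf1 at 80.39 and Tal1 at 72.91 highest and Nfe2 and Add2 lowest. Megakaryocyte genes (median 53.1) were led by Pf4 at 83.86, followed by Tubb1, Itga2b and Clec1b, with Selp and Gp6 lowest. Progenitor genes (median 52.8) were led by Lmo2, Cd34, Cd93 and Lyl1, with Myb at 38.24 and Gfi1 at 7.45 lowest. Macrophage genes had the lowest median of the blood lists at 36.8. Csf1r, the receptor of macrophage growth factor, had signals of 671, 730, 965 and 599 and Lgmn, Mrc1 and Cd68 were also high, but Lgmn and Mrc1 are not made by macrophages alone, and Aif1 and Itgam were at 12 to 21.

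The mesoderm was represented best by its matrix. Mesenchymal matrix genes had a median percentile of 88.2, with Col3a1, Fn1, Col1a2 and Lum above 98, and Bgn and Col6a2 lowest at 58.53 and 57.47. Smooth muscle and mural genes had a median of 68.6. Acta2, smooth muscle actin, lay at 94.36, followed by Cald1, Cnn2 and Tpm1, while Rgs5 and Cnn1 were below 20. Factors of the extraembryonic mesoderm (median 57.8) were led by Snai2 at 83.77, Tbx20, Bmp4 and Pitx1, with Prrx1 and Hoxa10 lowest. Mesothelium genes had a median of 25.0. Upk3b at 87.32, Upk1b, Rspo1 and Wt1 were highest, and only Upk3b and Upk1b of the 8 members were above the array median on all 4 arrays, with Msln and Muc16 lowest.

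Endothelial genes lay in the middle of the range. Pan-endothelial genes had a median percentile of 60.3, with Ramp2 at 80.39, Plvap at 77.29, Kdr, the main receptor of VEGF, at 71.91, and Clec14a at 67.44 highest, and Tie1 and Pecam1 lowest. The only Pecam1 probe set used gave 31, 27, 16 and 23, below the array medians. Endothelial transcription factors had a median of 62.1, with Ets2, Epas1, Ets1 and Tal1 highest and Fli1 and Etv2 lowest. Arterial, venous and Notch genes (median 53.6) were led by Nrp1, Nrp2, Aplnr and Rbpj, the DNA-binding partner of Notch, with signals of 915, 887, 984 and 919 for the latter. Gja5 and Hey2 were lowest, at 12 to 24. The scavenger receptors of yolk sac endothelium and shared genes (median 70.9) were led by Dab2, Maf, Lyve1 and Stab2, with Gpr182 and Stab1 lowest, and Dab2 is also an endoderm gene.

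Markers of heart, nervous tissue, trophoblast and decidua were low, with exceptions. Of 15 cardiac genes, 9 were below the array median on all 4 arrays, among them Myl7 and Myh6, and Tnni1, Tnnc1, Actc1 and Myl3 were highest. Nes, at 161 to 244, was the 1 neural gene of 13 above the array median on all 4 arrays, followed by Pax3, Neurog1 and Pax6, whereas Sox2 and Zic1 were at 9 to 12. Of the trophoblast list, Cdx2, Hand1, Psg21 and Prl7a1 were highest, Ceacam11 and Prl7a2 lowest, and Cdx2 and Hand1 are also mesoderm genes. Prl7a1, a placental prolactin, had 44 and 21 on the C57BL6 arrays and 999 and 15 on the mixed strain arrays, so a single array stood apart. Cryab, Wnt4, Prl8a2 and Htra3 were the highest decidual genes, and Aldh3a1 and Prl3c1 the lowest. Prl8a2, a prolactin of the decidua, had 143 and 333 against 281 and 41. The part of placental or decidual tissue in the results below was not tested.

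To ask which genes differed between the wild type pairs, the mixed strain pair was compared with the C57BL6 pair over 10912 genes. A difference was called at an adjusted p under 0.05. On the deposited scale 3710 genes were called, 34.0% of those tested, of which 2790 (25.6%) were higher and 920 (8.43%) lower in the mixed strain pair. Leaving out C57BL6 replicate 2, mixed strain replicate 1 or mixed strain replicate 2 lowered the number called to 2104, 2078 and 2141, and the number higher to 1554, 1556 and 1727. Leaving out any of the 4 wild type arrays lowered the number lower in the mixed strain pair, to 519 and 550 without C57BL6 replicates 1 and 2 and to 522 and 414 without mixed strain replicates 1 and 2. In all, 1157 of the calls were at least 2-fold. A rule of size with no test, at least 2-fold with both arrays of a pair beyond both of the other, took 944 genes as higher (8.65%) and 247 as lower (2.26%). The median absolute log2 difference was 0.38 between the pairs, against 0.22 between the C57BL6 arrays and 0.15 between the mixed strain arrays.

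The direction of small differences depended on scaling. The median log2 difference of the tested genes was 0.17 as deposited, -0.12 after centring each array on its median and -0.03 after quantile normalization, and the share of calls that were higher in the mixed strain pair was 75.2%, 38.2% and 49.3%. The shift also varied with signal. In 20 bins of genes by signal the median difference was lowest at -0.32 where the median signal was 29.5, highest at 0.32 where it was 441.8, and 0.02 in the bin of the highest signals. The mutant arrays of the same sets, which share no array with the wild type pairs, gave a curve of like shape, from -0.22 to 0.27. Calls made in the same direction under all 3 scalings numbered 1458 higher (13.4%) and 895 lower (8.20%), and these are called kept below. No called gene was called in the opposite direction under another scaling.

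**Figure D2:**
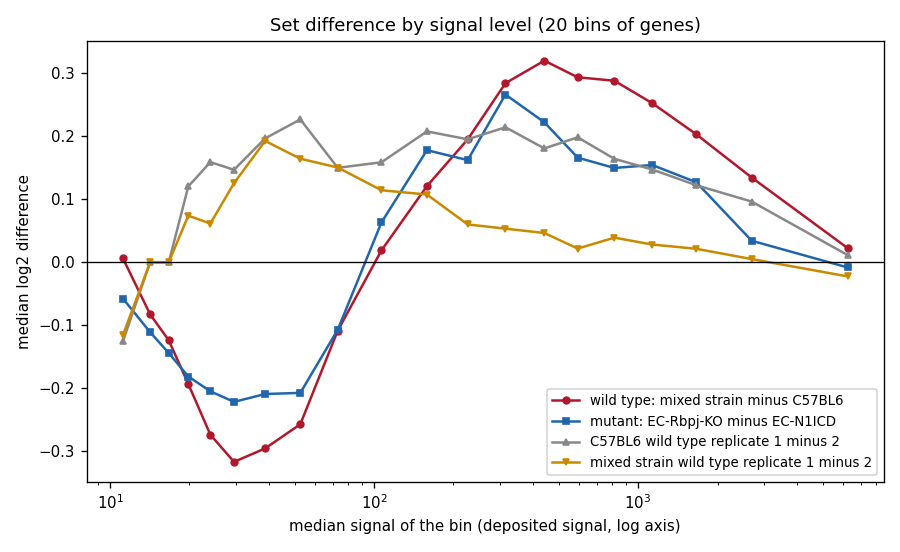
Median log2 difference (vertical axis) against the median deposited signal (horizontal log axis) in 20 bins of genes. Red points are the mixed strain minus the C57BL6 wild type pair, blue points the mutant arrays of the same sets, grey and ochre points replicate 1 minus replicate 2 within each wild type pair. The red curve falls to -0.32 at low and climbs to 0.32 at middle signals.

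Genes of sterol synthesis differed most as a group. Of 15 tested members 14 were higher in the mixed strain pair and 0 lower, against 25.6% of all genes higher, and the 14 calls were kept under all 3 scalings. The median log2 difference over the list was 2.14 as deposited, 1.85 after centring and 1.87 after quantile normalization, against 0.17 for all genes. Leaving out each wild type array gave medians of 1.59 to 2.29.

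Sqle, squalene epoxidase, a rate-limiting enzyme of the pathway, had signals of 663 and 744 on the C57BL6 arrays and 4392 and 4244 on the mixed strain arrays. The pairs did not overlap, and the difference was 6.15-fold (log2 2.62, standard error 0.16, n = 2 per pair, adjusted p = 2.41e-05). Cyp51, which demethylates lanosterol, was at 171 and 180 against 1607 and 1299 (8.24-fold, adjusted p = 0.000142), and its other 2 probe sets differed by 2.28 and 2.38 on the log2 scale. Msmo1, the sterol C4 oxidase, was at 527 and 490 against 2859 and 2998 (5.76-fold, adjusted p = 4.87e-05). These enzymes act after squalene, and for each of them both mixed strain arrays were far above both C57BL6 arrays.

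Earlier steps of the pathway were higher too. Hmgcs1, which makes HMG-CoA, was at 3436 and 3429 against 9773 and 8667 (2.68-fold, adjusted p = 0.000403). Idi1, the isopentenyl isomerase, was at 639 and 702 against 3842 and 2868 (4.96-fold, adjusted p = 0.000158), and Mvd, Fdps and Fdft1 were 3.13-, 2.39- and 2.17-fold higher. Later enzymes included Lss and Dhcr7, 4.41- and 4.42-fold higher, and Nsdhl and Sc5d, 2.28- and 2.27-fold higher. The regulators moved with the enzymes. Srebf2, the transcription factor of the pathway, was at 202 and 131 against 855 and 980 (5.63-fold, adjusted p = 9.79e-05), and Insig1, its feedback inhibitor, was at 182 and 174 against 872 and 749 (4.54-fold, adjusted p = 0.000142). The second probe set of Srebf2 differed by 0.91 on the log2 scale. Stard4, a sterol transfer protein, did not pass the test, at 2147 and 1700 against 2335 and 2704 (log2 0.40, adjusted p = 0.0631), although its other 2 probe sets differed by 0.99 and 1.24. One of the other Sc5d probe sets went the opposite way, at 116 and 113 against 50 and 62, and the other differed by 1.29.

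**Figure D3:**
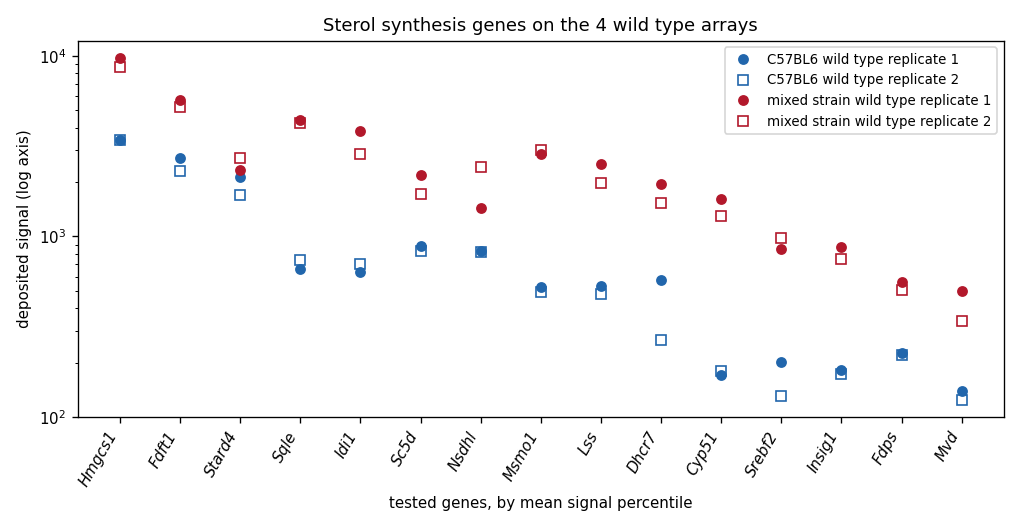
Deposited signals (vertical log axis) of the 15 tested sterol synthesis genes on the 4 wild type arrays. Blue symbols are C57BL6, red symbols mixed strain, filled circles replicate 1 and open squares replicate 2. Both red symbols lie above both blue ones for every gene, and the gap is smallest for Stard4, the gene that did not pass the test.

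The promoters of these genes are shown because the genes moved together and because sterol genes are known targets of SREBP2, the Srebf2 product, which acts with NF-Y at CCAAT boxes. RefSeq promoter windows (GRCm38.p6, 250 bases before to 50 after a start) were at hand for 11 of the 15 genes. The letters TCACNCCAC of a sterol response element, on either strand, were found in 1 of the 11, Hmgcs1, and in 1.44% of 27025 genes. CCAAT, on either strand, was found in 11 of the 11 and in 41.1% of all genes. The 11 genes had 13 windows. A gene was counted when any of its windows held a match, and not every Dhcr7 window held CCAAT. The 3 windows with the most CCAAT matches follow, 5' to 3' on the strand of the gene, with matches to CCAAT (or its complement ATTGG) and, in Hmgcs1, TCACNCCAC in capitals. A match describes the letters and does not show binding. The windows are chr13:119690101-119690400 on the plus strand for Hmgcs1, chrX:72918271-72918570 on the plus strand for Nsdhl and chr8:64733529-64733828 on the minus strand for Msmo1.
Hmgcs1: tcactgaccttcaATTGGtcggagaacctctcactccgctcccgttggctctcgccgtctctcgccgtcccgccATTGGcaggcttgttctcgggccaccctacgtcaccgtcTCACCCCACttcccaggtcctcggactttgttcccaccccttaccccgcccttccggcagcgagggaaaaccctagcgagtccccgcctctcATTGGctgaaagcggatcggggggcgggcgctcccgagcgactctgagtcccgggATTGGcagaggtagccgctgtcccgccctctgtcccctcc
Nsdhl: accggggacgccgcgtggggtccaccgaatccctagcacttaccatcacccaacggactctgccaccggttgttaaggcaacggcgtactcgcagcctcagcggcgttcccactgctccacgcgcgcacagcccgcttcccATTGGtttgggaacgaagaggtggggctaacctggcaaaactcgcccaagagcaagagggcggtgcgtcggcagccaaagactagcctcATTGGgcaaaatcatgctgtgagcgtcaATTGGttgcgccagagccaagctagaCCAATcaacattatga
Msmo1: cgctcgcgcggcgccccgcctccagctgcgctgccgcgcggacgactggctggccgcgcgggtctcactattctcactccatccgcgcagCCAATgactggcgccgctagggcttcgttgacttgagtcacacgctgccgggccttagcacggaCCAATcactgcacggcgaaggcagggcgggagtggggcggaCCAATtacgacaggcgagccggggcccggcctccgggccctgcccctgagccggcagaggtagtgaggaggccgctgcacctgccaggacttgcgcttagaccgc
In Hmgcs1 the response element letters begin at base 114 of the window, which holds 4 CCAAT matches. Nsdhl also held 4 and Msmo1 held 3, and the other 8 genes with a window were Cyp51, Insig1, Dhcr7, Mvd, Sc5d, Lss, Idi1 and Srebf2.

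Called visceral endoderm genes other than apolipoproteins were mostly higher in the mixed strain pair on the deposited scale, where 75.2% of the calls over all genes were higher too. After median centring the calls were 6 higher and 0 lower for plasma proteins and 3 and 0 for endocytic genes, but 3 and 3 both for epithelial genes and for transcription factors. Of 14 tested secreted plasma proteins 8 were higher and 0 lower as deposited, against 25.6% of all genes higher, and 6 were kept, against 13.4%, with a median log2 difference of 0.66 (0.37 centred, 0.59 quantile). Fga, the fibrinogen alpha chain, was at 3470 and 3064 against 9940 and 8943 (2.89-fold, standard error 0.12 on the log2 scale, adjusted p = 9.35e-05). Fgg, its gamma chain, was 1.32-fold higher, and Fgb, the beta chain, was at 7569 and 7463 against 8460 and 8022 and did not pass the test (adjusted p = 0.271). The probe sets of the 3 chains of one protein gave unequal differences, and whether the chains differed from each other was not tested.

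Ambp, the precursor of alpha-1-microglobulin, was at 1397 and 1353 against 4964 and 3486 (3.03-fold, adjusted p = 0.00153). Kng1, kininogen, was 2.87-fold higher, F2, prothrombin, 1.90-fold, and Vtn, vitronectin, 3.66-fold. Alb, albumin, was low on every array at 38 and 73 against 225 and 167, so its 3.68-fold difference (adjusted p = 0.00294) starts close to the array medians. Hpx, hemopexin, at 27 and 42 against 107 and 55, was higher on the deposited scale, but its C57BL6 signals were below the array medians and, like Fgg, it did not keep its call. The members with the highest signals, Afp, Ttr and Rbp4, differed by -0.01, 0.07 and 0.21 on the log2 scale and were not called. In the bin of the highest signals the median difference over all genes was 0.02, and whether the top of the signal range hid differences was not tested.

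Of 8 endocytic genes 5 were higher and 0 lower, against 25.6% of all genes higher, and 3 were kept, against 13.4%, with a median log2 difference of 0.53 (0.23 centred, 0.56 quantile). Fcgrt, the neonatal Fc receptor that carries maternal antibody, was at 2065 and 1832 against 3617 and 4994 (2.19-fold, adjusted p = 0.000781), and Lrp2 and Gm2a were 1.88- and 1.72-fold higher. Dab2 and Amn were 1.45- and 1.44-fold higher on the deposited scale but lost their calls under a scaling, and Cubn differed by 0.06. Other probe sets of Dab2 differed by -0.18, 1.09 and 1.20 on the log2 scale. Of 12 epithelial genes 7 were higher and 1 lower as deposited, against 25.6% and 8.43% of all genes. Of these calls 3 and 1 were kept, against 13.4% and 8.20%, with no prevailing direction after centring. Cldn6 (1.76-fold), Cdh1 (1.74-fold) and Ihh (2.35-fold) kept their calls, whereas those of Krt18, Epcam, Cited1 and Muc13, each 1.48- to 1.58-fold higher, depended on scaling. Spink1, a trypsin inhibitor, was lower, at 10767 and 11447 against 6720 and 7598 (1.55-fold).

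The transcription factors of the endoderm split in direction. Foxa2 was at 1105 and 799 against 1789 and 2272 (2.15-fold, adjusted p = 0.00388), and Foxa1 and Gata4 were 2.47- and 2.07-fold higher. Hnf4a and Gata6 were 1.35- and 1.59-fold higher on the deposited scale, without keeping the call. Other probe sets differed by 0.21, 0.88 and 1.60 on the log2 scale for Hnf4a and by -0.68 and 0.88 for Gata6. Sox17 and Sox7, which endothelium also expresses, were lower: Sox17 was at 519 and 479 against 157 and 174 (3.02-fold, adjusted p = 0.000191) and Sox7 was 2.07-fold lower. Apolipoproteins and lipid export genes had no common direction. Mttp, which loads lipid onto apolipoprotein B, was at 2405 and 3579 against 6182 and 5604 (2.01-fold, adjusted p = 0.00202), and Lcat was also 2.01-fold higher, while Apoc2, Apoa4 and Fabp2 were 1.53-, 1.43- and 1.77-fold lower. The median of the list was 0.08 as deposited and 0.16 after quantile normalization but -0.22 after centring. Of 10 tested parietal endoderm markers 5 were higher and 0 lower, against 25.6% of all genes higher, and 3 were kept, against 13.4%. The 5 were all basement membrane genes, Lamc1 at 2.36-fold and Col4a1, Col4a2, Sparc and Lama1 at 1.57- to 1.76-fold higher. The median of the markers was 0.44 as deposited and 0.14 centred, and after centring 3 were called higher and 1 lower. The calls of Sparc and Lama1 depended on scaling.

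Blood genes were lower in the mixed strain pair where they were called at all, apart from C1qb. Of 12 heme and iron genes 5 were lower and 0 higher, against 8.43% of all genes lower, and all 5 were kept, against 8.20%, with a median log2 difference of -0.39 (-0.69 centred, -0.54 quantile). Alas2, the first enzyme of heme synthesis in red cells, was at 2402 and 2815 against 1053 and 764 (2.90-fold, standard error 0.53 on the log2 scale, adjusted p = 0.0422). Tfrc was at 4425 and 5779 against 2691 and 2470 (1.96-fold), Blvrb, biliverdin reductase B, was 2.41-fold lower and Uros and Urod were 1.87- and 1.57-fold lower.

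The transcription factor Gata1, which drives red cell and megakaryocyte genes, was at 939 and 922 against 365 and 274 (2.94-fold, adjusted p = 0.0122). With Ank1, ankyrin of the red cell membrane, 2.15-fold lower, it made up the 2 calls among 16 red cell membrane genes and factors, a share near the 8.43% of all genes. Their median was -0.65, but replicate 1 of the mixed strain pair exceeded replicate 2 by a median of 0.49 over these 16 genes, and leaving out each array in turn moved the median from -1.10, without mixed strain replicate 1, to -0.31, without replicate 2. The embryonic globins did not pass the test as deposited or after quantile normalization, but all 3 were called lower after median centring. Hbb-bh1 was at 33045 and 36554 against 24701 and 25074 (log2 -0.48, adjusted p = 0.0520), Hba-x at 23128 and 22936 against 15177 and 13235 (log2 -0.70, adjusted p = 0.103), and Hbb-y at 25488 and 27805 against 24018 and 25076. Another Hbb-y probe set was at 27105 and 27547 against 19261 and 18893 (log2 -0.52), and a further one differed by -0.14. The embryonic globins gave some of the highest signals on the arrays.

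Among the other blood lists, lower calls were above the share of all genes for megakaryocyte and progenitor genes, but not for macrophage genes. Itga2b, Clec1b, Treml1 and Gp9, genes of megakaryocytes and platelets, were 1.80-, 2.06-, 1.76- and 1.57-fold lower, 4 of 10 tested, against 8.43% of all genes lower. Pf4, at 1400 and 2324 against 1060 and 930, was not called. Of 12 progenitor genes 3 were lower, against 8.43% of all genes lower. They were Cd34 (548 and 491 against 171 and 228, 2.63-fold, adjusted p = 0.000588), Cd93 (2.69-fold) and Gfi1b (1.83-fold), and Cd34 and Cd93 are also made by endothelium. Runx1 and Kit did not pass the test. Of 13 macrophage genes Mrc1 was 2.47-fold lower and C1qb, at 16 and 51 against 88 and 80, was 2.94-fold higher without keeping the call, with a list median of -0.0019.

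Among mesoderm genes, several contractile members were lower in the mixed strain pair. Of 12 smooth muscle and mural genes 5 were lower and 0 higher, against 8.43% of all genes lower, and all 5 were kept, against 8.20%, with a median log2 difference of -0.22 (-0.52 centred, -0.40 quantile). Acta2 was at 7480 and 8684 against 2316 and 2411, both mixed strain arrays far below both C57BL6 arrays (3.41-fold, standard error 0.17 on the log2 scale, adjusted p = 0.000142). Pdgfra, a receptor of mesenchymal cells, was at 962 and 1041 against 387 and 462 (2.37-fold), Myl9 was 2.01-fold lower, and Cald1 and Tagln were 1.84- and 1.82-fold lower. Actc1, cardiac actin, which was put in the cardiac list, was at 326 and 460 against 104 and 133 (3.29-fold, adjusted p = 0.00314). Cnn2, Tpm1 and Tpm2 did not pass the test, so the contractile genes did not all differ.

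Matrix genes showed 4 higher and 0 lower of 15, with 2 kept, shares near the 25.6% and 13.4% of all genes. Col1a2 was at 9007 and 7493 against 15169 and 14630 (1.81-fold, adjusted p = 0.0002) and Col6a3 was 1.86-fold higher, while the calls of Bgn and Col3a1 depended on scaling. The list median was 0.19 as deposited, 0.01 after quantile normalization and -0.10 after centring. Among 13 mesoderm factors 3 were higher, near the share of all genes (25.6%), and 2 lower, against 8.43% of all genes lower. Pitx1 was at 226 and 244 against 715 and 859 (3.34-fold, adjusted p = 0.000199), and Hand1 and Twist1 were 2.10- and 2.14-fold higher, whereas Snai2 and Meis2 were 1.75- and 1.80-fold lower. Neither of the 2 tested mesothelium genes, Upk3b and Upk1b, passed the test.

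Endothelial genes were lower in the mixed strain pair. Of 18 tested pan-endothelial genes 8 were lower and 0 higher, against 8.43% of all genes lower, and the 8 calls were kept under all 3 scalings. The median log2 difference was -0.66 as deposited, -0.96 centred and -0.90 after quantile normalization. Over the same genes C57BL6 replicate 1 exceeded replicate 2 by a median of 0.41, and leaving out each wild type array gave list medians of -0.97 to -0.52. The count of 8 fell to 5 without C57BL6 replicate 1 and to 5 without mixed strain replicate 2.

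Ecscr, an endothelial surface protein, was at 404 and 484 against 189 and 127 (2.85-fold, standard error 0.24 on the log2 scale, adjusted p = 0.00121). Icam2, an adhesion molecule, was at 498 and 375 against 170 and 141 (2.79-fold, adjusted p = 0.00164). Kdr was at 1122 and 655 against 401 and 390 (2.17-fold, adjusted p = 0.00572), and Cldn5, a tight junction protein, at 765 and 502 against 302 and 273 (2.16-fold, adjusted p = 0.00521). For these 4 genes the pairs did not overlap, and for Kdr and Cldn5 the gap was widest from C57BL6 replicate 1. Clec14a was 2.34-fold lower, although its second probe set differed by -0.18 on the log2 scale, and Ptprb, Esam and Mmrn2 were 1.59- to 1.83-fold lower. By the probe sets used, other endothelial genes did not share the difference. Ramp2 was at 1156 and 866 against 1067 and 921, Egfl7 at 362 and 463 against 469 and 440, and Cdh5, VE-cadherin, at 103 and 143 against 97 and 108, and the arrays of the pairs overlapped for each of them. The other probe sets of Egfl7 differed by -0.34, -0.35 and -0.50 on the log2 scale, without overlap of the pairs, so the probe sets of this gene disagreed.

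**Figure D4:**
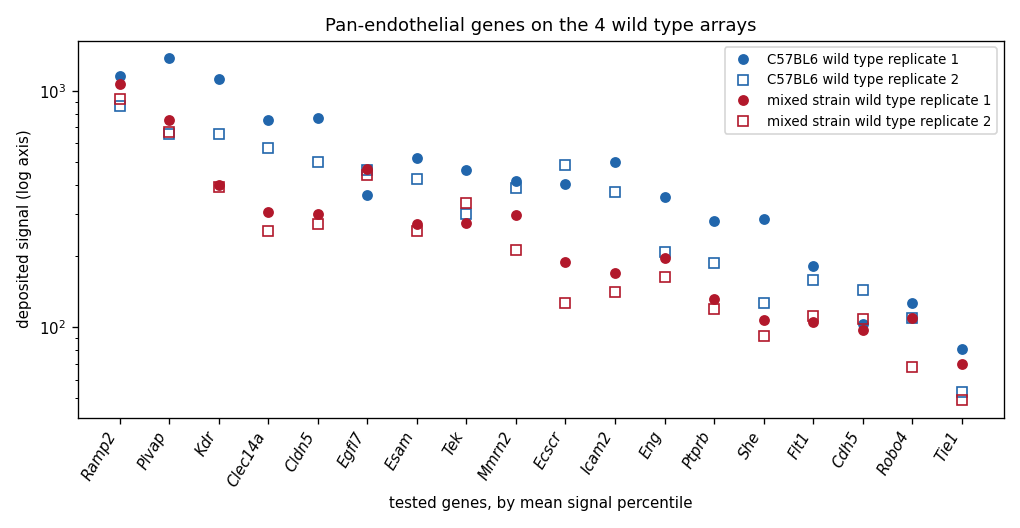
Deposited signals (vertical log axis) of the 18 tested pan-endothelial genes on the 4 wild type arrays, with blue for C57BL6, red for mixed strain, filled circles for replicate 1 and open squares for replicate 2. Both red symbols lie below both blue ones for the 8 called genes, and red and blue overlap for Ramp2, Egfl7, Tek, Cdh5, Plvap, Tie1 and Robo4.

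Transcription factors of the endothelium followed in part. Erg was at 225 and 195 against 81 and 71 (2.76-fold, adjusted p = 0.00164), Fli1 at 185 and 143 against 69 and 63 (2.47-fold, adjusted p = 0.00765), and Sox18 and Elk3 were 2.36- and 1.58-fold lower. Klf4, which other cell types express as well, was 1.71-fold higher without keeping the call. Nr2f2, Ets1 and Epas1 did not pass the test. The list counted 1 higher and 4 lower of 14, against 25.6% of all genes higher and 8.43% lower.

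Of 13 arterial, venous and Notch genes 7 were lower, against 8.43% of all genes, and all 7 were kept, against 8.20%. Aplnr, the apelin receptor of venous endothelium, was at 2248 and 1602 against 748 and 694 (2.63-fold, adjusted p = 0.00155). Vegfc, a growth factor for vessels and lymphatics, was at 239 and 138 against 66 and 71 (2.65-fold, adjusted p = 0.00414). Among members of the Notch pathway, the receptor Notch1 was at 453 and 335 against 260 and 246 (1.54-fold, adjusted p = 0.0311), the ligand Jag1 was 2.26-fold lower and the target Hey1, at 147 and 103 against 72 and 70, was 1.73-fold lower. Efnb2, a marker of arteries, and the gap junction gene Gja4 were 2.17- and 1.95-fold lower. Ephb4, a marker of veins, was the 1 higher gene and did not keep its call. Rbpj itself differed by 0.08 on the log2 scale (adjusted p = 0.753), but its other 2 probe sets went opposite ways, at 482 and 431 against 259 and 293 and at 145 and 148 against 213 and 202.

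Of 7 scavenger receptors and shared genes 2 were higher, a share near the 25.6% of all genes, and 2 were lower, against 8.43%. Stab2, stabilin-2, was at 1169 and 699 against 373 and 286 (2.77-fold, adjusted p = 0.0112) and Mrc1 was at 885 and 699 against 333 and 305, both lower, whereas Maf was 1.71-fold higher. Dab2 was 1.45-fold higher on the deposited scale without keeping the call. Lyve1 was at 2964 and 2248 against 1992 and 1739 and was not called.

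**Figure D5:**
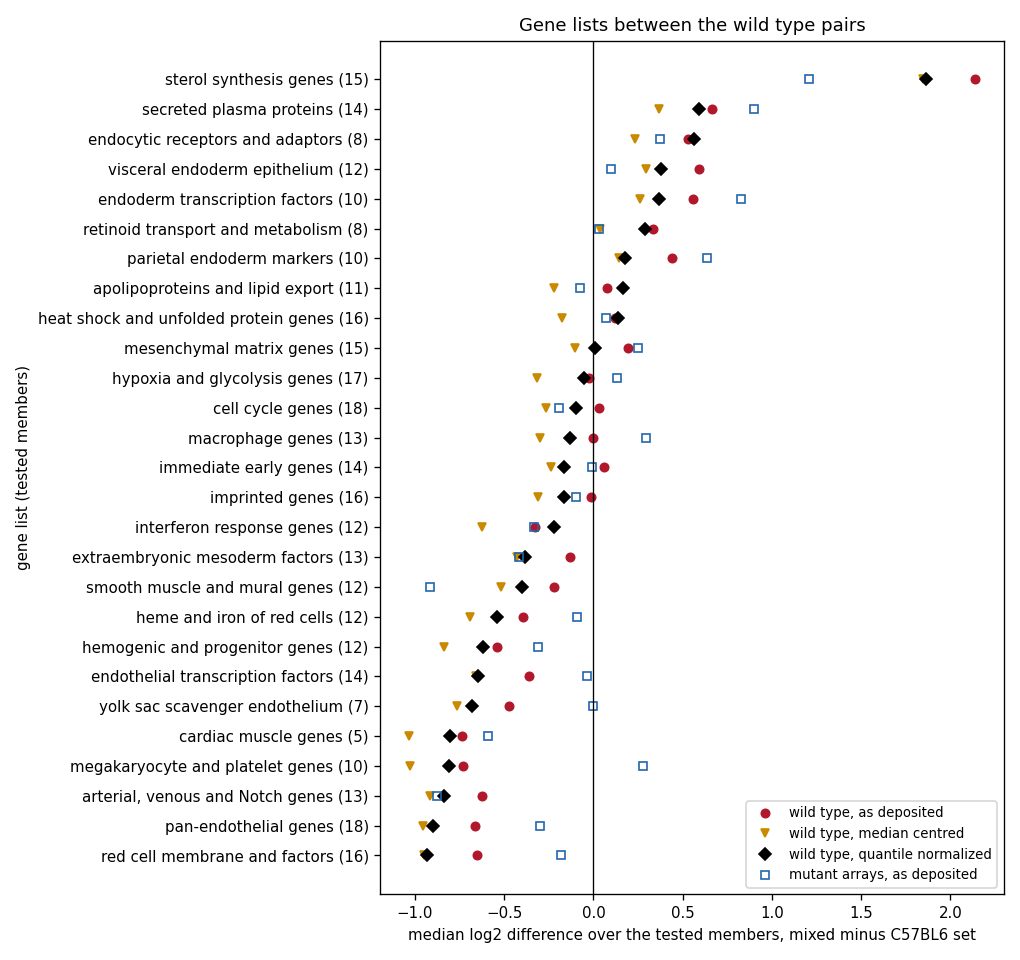
Median log2 difference over the tested members of each gene list, mixed strain minus C57BL6 wild type, as deposited (red circles), after median centring (ochre triangles) and after quantile normalization (black diamonds), with the EC-Rbpj-KO minus EC-N1ICD difference as open blue squares. Sterol synthesis genes stand at 1.85 to 2.14 under every scaling, endothelial and red cell lists lie below 0 and the sign of the apolipoprotein, matrix, heat shock, cell cycle and immediate early lists changes with the scaling.

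The genes with the largest differences were varied in kind. Gucy2c, the guanylate cyclase C receptor of intestinal epithelium, was at 71 and 69 on the C57BL6 arrays and 932 and 834 on the mixed strain arrays, the widest gap upward (12.6-fold, standard error 0.23 on the log2 scale, adjusted p = 2.41e-05). Cck, the gut hormone cholecystokinin, was at 110 and 55 against 824 and 539 (8.57-fold), and Amacr, a peroxisomal racemase of bile acid and branched lipid breakdown, at 136 and 114 against 981 and 934 (7.69-fold). A2m, a protease inhibitor of plasma, was at 280 and 262 against 2383 and 1301 (6.50-fold). Nynrin was 6.45-fold higher and Rbm46, an RNA-binding protein of germ cells, 7.35-fold, with its second probe set at 3.11 on the log2 scale. Ppp1r3b, Scaf1, Ankrd33b, Oxsm and Gas7, at 5.56- to 6.65-fold, completed the 15 with the sterol genes Cyp51, Sqle, Msmo1 and Srebf2.

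The 4 other probe sets of Oxsm differed by -0.58 to 0.23, and those of Gas7 by -0.61 to 1.13, so the probe sets of these genes disagreed. Ankrd33b had 264 and 30 on the C57BL6 arrays. For Rbm46, Ppp1r3b and Gas7 both C57BL6 signals were below the array median, which limits the size of the fold.

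The widest gap downward was that of Ang, angiogenin, a secreted ribonuclease, at 3891 and 3805 against 248 and 212 (16.8-fold, standard error 0.29 on the log2 scale, adjusted p = 4.87e-05). A second Ang probe set had 2244 and 1768 against 579 and 509, and another 382 and 336 against 341 and 404, so the probe sets of this gene disagreed. Rpgrip1 was at 2220 and 1817 against 150 and 164 (12.8-fold) and Pycard, the ASC adaptor of inflammasomes, at 990 and 878 against 69 and 80 (12.5-fold), and the other probe sets of both genes were at 11 to 28. Sgk1, a serum- and steroid-responsive kinase, was at 1832 and 1068 against 209 and 251 (6.11-fold), and Snhg3, a host of small nucleolar RNAs, at 1380 and 1454 against 299 and 353 (4.36-fold). Ngdn was at 6545 and 6940 against 1848 and 1628 (3.89-fold), with a second probe set at -0.83. Pga5, Hesx1, ccdc198, Rab26os, Hmcn1, 1500015A07Rik, Nexn, Tcim and Zfp429 completed the 15 lower genes at 3.77- to 5.22-fold, and both mixed strain signals of Rab26os, Hmcn1 and Nexn were below the array median. All 30 genes had the same sign between the mutant arrays of the sets.

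Genes with known variants between mouse strains gave a mixed picture. H2-K1, a class I antigen-presenting molecule, was at 207 and 232 against 708 and 770 (3.37-fold, adjusted p = 0.000191), and H2-D1, another, at 301 and 323 against 709 and 721 (2.29-fold, adjusted p = 0.000758). Their probe sets were made for reference alleles and can bind related class I genes, and those of H2-K1 gave 0.62, 1.19 and -0.06 for the other 3. B2m, the class I light chain, was at 4402 and 2026 against 7991 and 8092 (2.69-fold, adjusted p = 0.0169). Wdfy1 was 1.90-fold higher without keeping the call, and of its other 4 probe sets 2 differed by 2.14 and 2.08 on the log2 scale. Nnt, a mitochondrial enzyme, did not pass the test with the probe set used, at 1026 and 891 against 1916 and 1014, but a second was at 537 and 568 against 1548 and 1021. Glo1, at 3767 and 4091 against 3722 and 3249, did not pass either, and a dimmer probe set was at 467 and 355 against 189 and 202. Alad, Ahr, H2-Q10 and H2-Ea did not pass the test, and Pla2g2a, Hc, Tyr and Gabra2 were below the filter, at 12 to 40.

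Other gene groups showed differences in single members. The share of members called higher was below the 25.6% of all genes in each list named here but hypoxia and glycolysis. In that list 2 of the 6 higher calls were kept. The share called lower was above the 8.43% of all genes in each list but the cell cycle and immediate early genes. Among 16 imprinted genes 4 were higher and 3 lower. Cdkn1c, a growth inhibitor expressed from the maternal allele, was at 3944 and 4081 against 7471 and 8084 (1.94-fold), and Peg10 at 66 and 40 against 217 and 221 (4.26-fold), while the amino acid transporter Slc38a4 was at 654 and 639 against 228 and 203 (log2 -1.59). Of 12 interferon response genes B2m was higher and Bst2 and Ifitm3 lower, by 2.75- and 1.92-fold. Of 16 heat shock and unfolded protein genes 2 were higher and 3 lower, among them Dnajb9, a chaperone of the endoplasmic reticulum, 2.54-fold higher and Trib3 2.99-fold lower. In the 8 tested retinoid genes Rxra was 3.09-fold higher by 1 probe set, although its others gave -0.20 and -0.61 on the log2 scale, and Cyp26a1 and Crabp2 were 1.90- and 1.76-fold lower. Cell cycle genes showed little difference. Of 18 tested, 2 were higher and 1 lower, and Mki67, at 5811 and 5608 against 6028 and 4841, was not called. Of 17 hypoxia and glycolysis genes 6 were higher and 3 lower, Bnip3 and Pfkp keeping higher calls and Adm, Hk2 and Pgk1 lower ones. Immediate early genes gave 3 higher of 14, none of them kept.

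The mutant arrays are other samples of the same sets. In each set the title of a mutant array begins with the same number as those of the wild type pair, so a litter may be shared. The mutant difference, EC-Rbpj-KO minus EC-N1ICD, also holds genotype and embryo sex. It had the sign of the wild type difference for 3535 of the 3710 called genes (95.3%), against 79.1% of all tested genes, and 2402 were called in the same direction and 15 in the opposite one. Over all 10912 tested genes 3541 were called in the direction of the wild type difference and 182 in the opposite one. Both differences came from 1 fit with a common spread per gene, so their calls are not independent. Of genes called at least 4-fold, 52 of 52 higher and 12 of 12 lower had the same sign. By list, the median on the mutant arrays was 1.21 for sterol synthesis genes, where Fdps was the exception at -0.07, 0.90 for secreted plasma proteins and 0.83 for endoderm transcription factors. It was -0.30 for pan-endothelial genes, -0.92 for smooth muscle genes and -0.88 for arterial, venous and Notch genes, and 0.28 for megakaryocyte genes, opposite to the wild type pairs. The tested mesothelium genes, at 0.36, were also opposite. Medians were small for endoderm epithelium (0.10), heme and iron genes (-0.09), endothelial transcription factors (-0.03) and scavenger endothelium (-0.0019). The genes called between the wild type pairs were spread over the genome, with 30.8% to 38.5% of the tested genes called on each chromosome (RefSeq, GRCm38.p6).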

How the data were processed

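RNA of E9.5 yolk sac was measured on 8 single-channel Affymetrix arrays, 2 for each of 4 groups taken from GEO's labels. The deposited intensity values, 1 linear signal per probe set and array in whole numbers from 7 to 36554, were made by the authors with MAS5 according to the submitters' processing notes (version, scaling target and detection calls not given in the sources used here). Arrays whose general level differs by a scaling factor shift every gene, so 3 scalings are compared. Of 45101 probe sets, 34945 name 1 gene in the platform annotation, 932 name several, 9224 name none or are among the 64 controls. For each of 18193 genes the brightest probe set, by its mean over the 8 arrays, stood for the gene.

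Log2 signals of the 10912 genes above the 40th percentile of mean signal (at least 68) entered a limma model (version 3.58.1, R 4.3.3, 4 groups, eBayes with trend, 4 residual and 7.37 prior degrees of freedom). P-values were two-sided with Benjamini-Hochberg adjustment at 0.05. Fold changes are ratios of geometric means, and values of genes below the filter come from a fit without it. An exact permutation test of 2 arrays against 2 cannot go below 0.333, so none was used. The steps were tested on simulated data. The number of arrays limits the precision, and background limits low signals.

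Of 497 genes in 35 lists, 461 were matched. The genes and lists were chosen with earlier results of these data known, so lists are described by counts and medians without a test. Named genes were the 15 largest called differences in each direction with pairs that did not overlap, called members of the endoderm, blood, mesoderm and endothelium lists, strain variant and check genes, the 20 highest ranks, and the 4 highest and 2 lowest ranks of each list. Other genes were named after their values were seen, among them all sterol synthesis genes and the members of the process lists. Figures were drawn with matplotlib 3.10.9.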

Additional observations from a re-analysis of the deposited data

Results flagged for a closer look

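The median log2 signal of the tested imprinted genes was 11.69 and 11.73 on the C57BL6 arrays and 11.42 and 11.73 on the mixed strain arrays. Mixed strain replicate 1 lay apart from the other 3 arrays, with a gap of 0.892 of the whole range, above the limit for 4 samples. It was 1 of 35 lists examined this way, and chance flags about 1 in 20.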

How the results depend on the processing

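No paired analysis was possible because the labels give no replicate numbers that the pairs share. Of 3710 genes called between the pairs, 2353 were called the same way under all 3 scalings, a rule chosen after seeing the data. Genes higher in the mixed strain pair numbered 2790 as deposited, 1504 after median centring, 1781 after quantile normalization and 1458 under all 3, and lower genes 920, 2434 and 1829. The size rule took 1191 genes, 944 higher and 247 lower. The methods' t-test called 2973 genes at its threshold and 3 after Benjamini-Hochberg, 3 higher and 0 lower, where limma had 4891 genes at an unadjusted p under 0.05. Leaving out 1 of the 8 arrays gave 2078 to 4180 called genes, 1554 to 3095 higher and 414 to 1086 lower. Leaving out a wild type array leaves that pair with 1 array, which is assumed to vary like the other groups. Pan-endothelial members lower were 8 as deposited, 13 after centring and 5 to 9 when a wild type array was left out. Of 134 named genes none turned direction under any alternative. Where an alternative changes only the filter, the trend, the test or the mutant arrays used, the direction of a difference cannot change. The 134 were also chosen for being called. With the mean of all probe sets 23 lost their call, after centring 17, and with the methods' test after Benjamini-Hochberg 134. Not all of the 134 named genes were tested in every alternative. The 60th percentile filter left 98 of them, and the choice of probe set and filter by the wild type arrays left 131. List medians of signal percentile moved most with the mean of all probe sets, from 24.6 to 13.4 for trophoblast genes and from 60.3 to 69.5 for pan-endothelial genes. The other alternatives kept the total within 1.5 times of the main count. Background limits genes with signals under the array median.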

Other observations

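Of the 30 genes with the largest differences between the wild type pairs, 7 lie on chromosome 14, where 3.32% of the tested genes lie (RefSeq, GRCm38.p6). They are Nynrin and Oxsm, higher in the mixed strain pair, and Ang, Rpgrip1, Hesx1, ccdc198 and Ngdn, lower. This was seen after the values were known and was not tested. The stretch from Ang to Nynrin also holds Rpgrip1 and Ngdn. In it 19 of 56 tested genes were called (33.9%), near the 34.0% of all genes. At 2-fold or more 12.5% were called, against 10.6% of all genes. Ang, Rpgrip1, Ngdn and Nynrin, picked for their large differences, are among these 7 genes, so the 2 shares cannot be compared. Among the called genes of that stretch, Lrp10 was at 920 and 565 on the C57BL6 arrays against 2323 and 2200 on the mixed strain arrays, and Mmp14 at 390 and 250 against 623 and 662.

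The longest run of neighbouring called genes that were at least 2-fold apart in the same direction held 4 genes, Znf41-ps, Zfp991, Zfp982 and Zfp979 on chromosome 4, lower in the mixed strain pair. They belong to the zinc finger genes, and whether their probe sets share targets was not tested.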
